A study of Mus musculus with 8 samples.

Results

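The genes described here encode NOD receptors and inflammasome components: Nod1, Nod2, Ripk2, Nlrp3, Nlrc4, Aim2, Pycard, Casp1, Casp4 and Gsdmd. They were taken by name, each through the probe set that carried that symbol alone and, where there were several, the one with the highest mean over the 8 arrays. Of these 10 genes, 9 were measured, each by 1 probe set, among 19938 genes with such a probe set. Ripk2, the kinase on which both NOD receptors signal, had no probe set with a single symbol and is not analysed here. All 9 measured genes were at or above the median of all probe sets in all 8 arrays.

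The arrays were hybridised with RNA of mononuclear phagocytes sorted from the colonic lamina propria or the spleen of C57BL/6 mice carrying Cx3cr1gfp/+, in which green fluorescent protein replaces 1 copy of the fractalkine receptor gene Cx3cr1, in all groups alike. Each of 8 labelled groups had 1 array. From colon at day 4 of colitis induced with dextran sodium sulphate (DSS) came CX3CR1int Ly6Clo cells, CX3CR1int Ly6Chi cells and CX3CR1hi F4/80hi cells, all from males. From steady-state colon came CX3CR1hi F4/80hi cells (male), CX3CR1hi monocyte-reconstituted resident macrophages (female) and CX3CR1hi resident macrophages (female). Splenic Ly6Chi monocytes came from mice at day 4 of colitis (male) and at steady state (female). The labels give neither the number of mice behind an array nor how reconstitution was done. For tests, arrays were therefore joined by sorted population into CX3CR1int (n = 2), CX3CR1hi (n = 4) and splenic (n = 2), whose members differ in colitis, origin, Ly6C or sex, so the p-values measure the spread between such arrays and not between replicates of 1 group. No CX3CR1int array came from steady state, so for those cells population and colitis cannot be told apart except through the other populations.

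NOD1 and NOD2 are cytosolic receptors for fragments of bacterial peptidoglycan and switch on NF-κB and MAP kinase signalling. Inflammasomes are assemblies in which a sensor recruits the adaptor ASC, encoded by Pycard, and through it caspase-1, which cleaves the precursors of the interleukins IL-1β and IL-18. Caspase-1 and, after binding cytosolic lipopolysaccharide, mouse caspase-11 (the product of Casp4) also cleave gasdermin D, whose freed part forms pores in the plasma membrane. In the gut these receptors face a dense microbiota, and loss-of-function variants of human NOD2 are linked to Crohn's disease.

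Upstream sequence was shown for Nod2, whose level varied most between the arrays, and for Nlrp3 and Casp4, the genes of the list that held a κB motif, the letters bound by NF-κB. The promoter table, from RefSeq on GRCm38.p6, had entries for 8 of the 9 genes, and the 250 bases before the start site were read. Capitals mark matches to the κB consensus on either strand, and the sequences run 5′ to 3′ on the plus strand.
Nod2 (chr8:88647097-88647346), no match: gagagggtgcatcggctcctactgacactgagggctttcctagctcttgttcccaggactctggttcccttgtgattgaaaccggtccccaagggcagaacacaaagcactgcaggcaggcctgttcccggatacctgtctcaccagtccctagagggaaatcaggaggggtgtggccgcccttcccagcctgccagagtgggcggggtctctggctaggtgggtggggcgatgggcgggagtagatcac
Nlrp3 (chr11:59541319-59541568), a match from -186 to -177 on both strands: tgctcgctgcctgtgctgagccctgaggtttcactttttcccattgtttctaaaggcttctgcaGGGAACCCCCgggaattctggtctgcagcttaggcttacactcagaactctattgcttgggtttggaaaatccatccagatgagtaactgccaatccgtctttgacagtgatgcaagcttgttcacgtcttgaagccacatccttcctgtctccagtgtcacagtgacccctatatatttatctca
Casp4 (chr9:5308599-5308848), overlapping matches from -93 to -83 and a match on the minus strand from -39 to -30: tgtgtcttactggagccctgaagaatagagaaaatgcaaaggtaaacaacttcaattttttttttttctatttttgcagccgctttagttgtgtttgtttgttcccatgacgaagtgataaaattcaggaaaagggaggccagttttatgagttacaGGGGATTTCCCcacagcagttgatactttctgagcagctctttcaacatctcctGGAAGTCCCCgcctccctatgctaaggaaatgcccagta
The κB consensus lay in 7.03% of the 27025 promoter windows of this length and in 2 of the 8 windows of the listed genes. The PU.1 core GAGGAA, searched on both strands like the others, lay in 23.1% of all windows and in 3 of the 8, those of Aim2, Pycard and Casp1. The AP-1 motif TGANTCA, in 6.85% of all windows, and the interferon-stimulated response element, in 3.05%, were in 0 of the 8. These matches describe letters in a window, and no binding was measured.

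The sorted cells were checked against markers. The median log2 level of 9 macrophage markers was 9.25 and 10.52 in the CX3CR1int Ly6Clo and Ly6Chi arrays, 12.05 to 12.23 in the CX3CR1hi arrays and 9.95 and 10.40 in the colitis and steady-state splenic arrays. That of 6 monocyte markers was 8.60 in Ly6Clo, 11.73 in Ly6Chi, 9.15 to 9.55 in CX3CR1hi and 12.35 and 12.34 in splenic arrays. Macrophage markers were thus highest in CX3CR1hi arrays and monocyte markers in the Ly6Chi ones. Epithelial RNA was present in every colonic array: all 14 epithelial markers were above the array median there, against 6 and 1 of 14 in the colitis and steady-state splenic arrays. The log2 of their summed signal was 14.09 to 14.34 in CX3CR1int arrays, 15.11 to 15.76 in CX3CR1hi arrays and 10.04 and 9.0 in the colitis and steady-state splenic arrays, so the markers moved with each comparison of colon with spleen below. They also moved between the colonic populations, with 8 of 14 lower in CX3CR1int than in CX3CR1hi cells (median log2 difference -1.36), as did macrophage markers, with 7 of 9 lower (-2.28). Some markers of other cells also differed from spleen. The plasma cell gene Jchain was at 10.71 to 12.46 in colonic arrays, against 7.03 and 6.02 in the colitis and steady-state splenic arrays. The stromal gene Dcn was at 9.77 to 11.43, against 5.26 and 5.19. In both colonic populations 2 of 5 B and plasma cell and 1 of 8 stromal markers were higher, with 1 of the former lower in CX3CR1hi cells. The part of these markers in the results was not tested. Dendritic cell markers stood apart in 1 array: the log2 summed signal of 8 markers was 13.13 in the CX3CR1int Ly6Clo array, against 10.68 in Ly6Chi, 9.01 to 9.32 in CX3CR1hi and 9.77 in splenic arrays. The steady-state splenic array, labelled female, held Xist at 10.04 together with the Y-linked Eif2s3y at 10.28 and Uty at 8.46, which goes against its label. Population results that rest on it are therefore also given without it, for the listed genes and for the counts of the other lists. In bulk RNA such as this, fewer cells of a type and less RNA per cell cannot be told apart.

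The receptors of peptidoglycan fragments differed most. Nod2, the sensor of muramyl dipeptide, stood at 8.99 in the CX3CR1int Ly6Clo array and 9.27 in the CX3CR1int Ly6Chi array, at 6.77, 6.42, 6.70 and 6.79 in the colitis F4/80hi, steady-state F4/80hi, reconstituted and resident CX3CR1hi arrays, and at 7.59 and 7.92 in the colitis and steady-state splenic arrays. Both CX3CR1int arrays were the highest, all 4 CX3CR1hi arrays the lowest and both splenic arrays in between, with no overlap between populations. Nod2 was higher in CX3CR1int than in CX3CR1hi cells by a log2 of 2.46 ± 0.16 (SE; 95% confidence interval 2.08 to 2.84; limma adjusted p = 0.000139). It was also higher in CX3CR1int than in splenic cells, by 1.38 ± 0.19 (0.94 to 1.82; limma adjusted p = 0.00273). In CX3CR1hi cells Nod2 was lower than in splenic cells, with a log2 difference of -1.08 ± 0.16 (-1.46 to -0.70; limma adjusted p = 0.0012). Without the steady-state splenic array these last differences were 1.54 (limma adjusted p = 0.0149) and -0.92 (limma adjusted p = 0.019). The CX3CR1int difference from CX3CR1hi cells was 2.5 with colitis as a term in the fit (limma adjusted p = 0.0026).

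Nod1, the sensor of peptidoglycan fragments that contain diaminopimelic acid, had another order. Its levels were 9.39 and 10.35 in the CX3CR1int Ly6Clo and Ly6Chi arrays, 9.36, 8.90, 9.05 and 8.73 in the colitis F4/80hi, steady-state F4/80hi, reconstituted and resident arrays, and 10.70 and 10.88 in the colitis and steady-state splenic arrays. Splenic monocytes were the highest and did not overlap with either colonic population, while the Ly6Clo array lay next to the colitis F4/80hi array. Nod1 was lower in CX3CR1hi than in splenic cells, with a log2 difference of -1.78 ± 0.28 (SE; -2.43 to -1.14; limma adjusted p = 0.0014), and of -1.69 without the steady-state splenic array (limma adjusted p = 0.0187). CX3CR1int cells differed from splenic cells by -0.92 ± 0.32 (limma adjusted p = 0.0726) and from CX3CR1hi cells by 0.86 ± 0.28 (limma adjusted p = 0.051), and neither passed the threshold of 0.05. Both CX3CR1int values rested on arrays that lay far apart: against CX3CR1hi cells the difference was 1.34 without the Ly6Clo array (limma adjusted p = 0.00757) and 0.38 without the Ly6Chi array (limma adjusted p = 0.245). It was 0.98 without the colitis F4/80hi array (limma adjusted p = 0.0442). Against splenic cells it was -0.83 without the steady-state splenic array (limma adjusted p = 0.275), -0.44 without the Ly6Clo array (limma adjusted p = 0.264) and -1.40 without the Ly6Chi array (limma adjusted p = 0.0058).

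**Figure D1:**
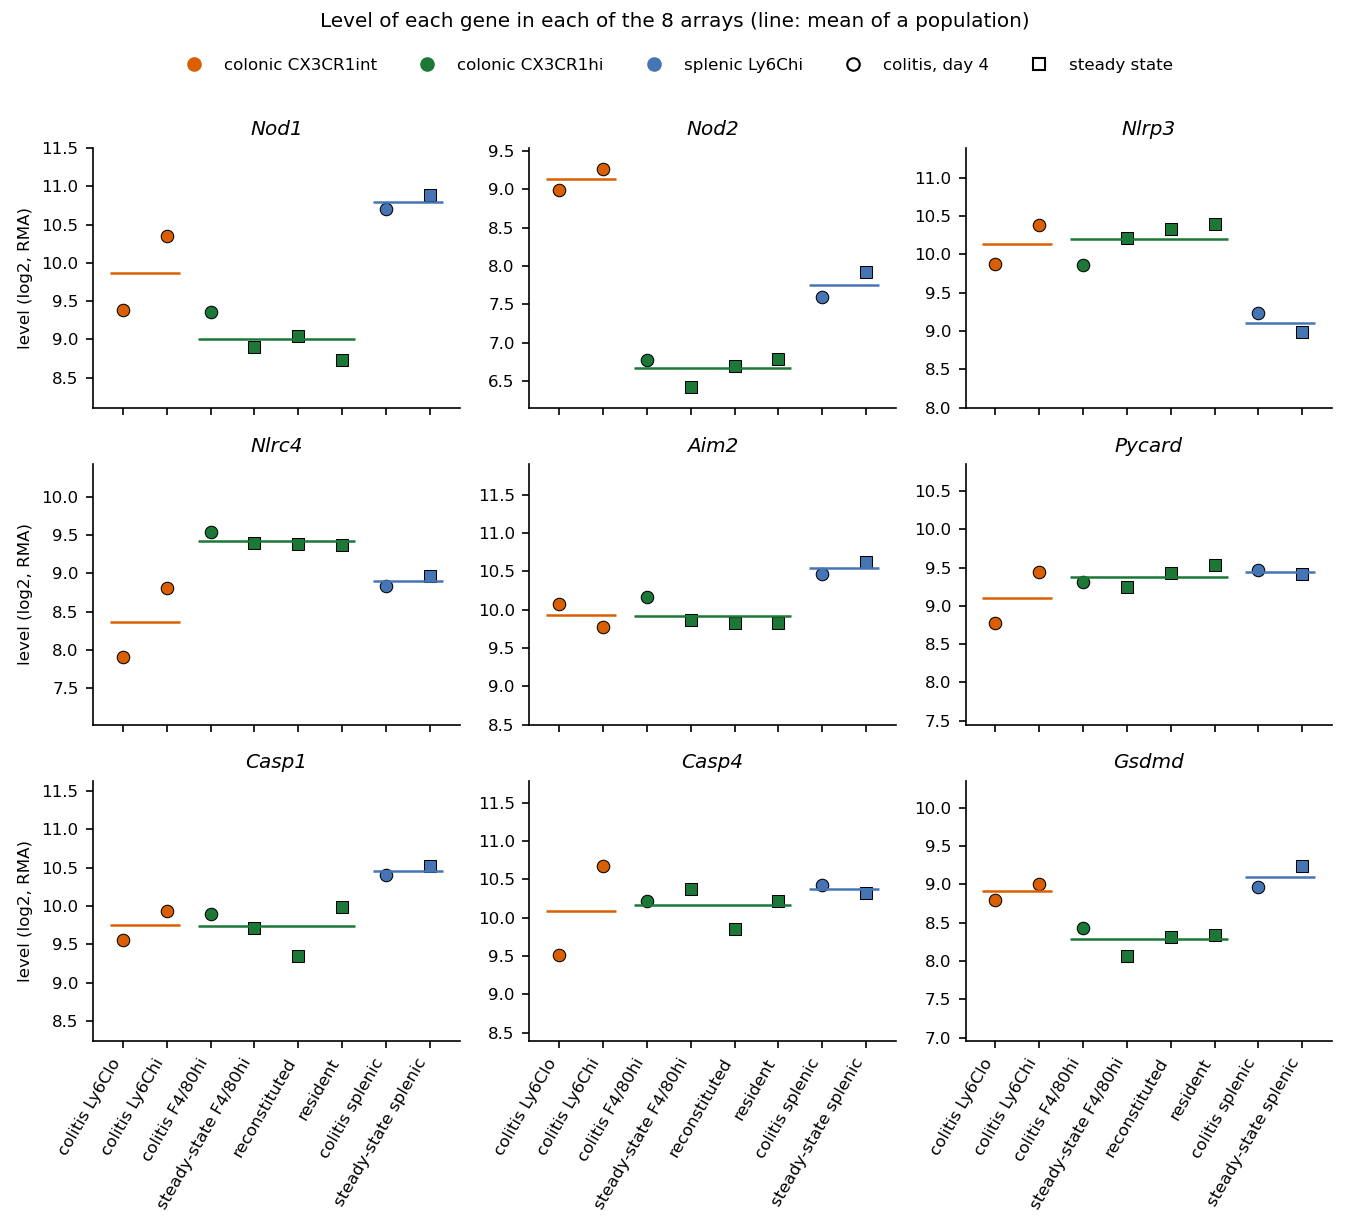
Log2 level (vertical axis) of the 9 genes, 1 panel a gene, with 1 point for each of the 8 arrays grouped by sorted population. Nod2 lay between 8.99 and 9.27 in the CX3CR1int arrays, above all CX3CR1hi and splenic arrays, while Nod1 was highest in the splenic arrays, at 10.70 and 10.88.

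Of the inflammasome sensors, Nlrp3 was higher in the colonic than in the splenic arrays. Nlrp3, which assembles an inflammasome on potassium efflux and whose transcription NF-κB raises, stood at 9.88 and 10.38 in the CX3CR1int Ly6Clo and Ly6Chi arrays. In the colitis F4/80hi, steady-state F4/80hi, reconstituted and resident arrays it stood at 9.86, 10.21, 10.33 and 10.40, and in the colitis and steady-state splenic arrays at 9.23 and 8.99. All 6 colonic arrays lay above both splenic arrays, and the CX3CR1int range lay within the CX3CR1hi range. Nlrp3 was higher than in splenic cells by a log2 of 1.09 ± 0.20 in CX3CR1hi cells (SE; limma adjusted p = 0.00298) and by 1.02 ± 0.23 in CX3CR1int cells (limma adjusted p = 0.0184). Without the steady-state splenic array the CX3CR1hi difference was 0.97 (limma adjusted p = 0.0375), and the CX3CR1int difference of 0.90 no longer passed (limma adjusted p = 0.129), nor did it without the colitis splenic array (1.14, limma adjusted p = 0.0629). Between CX3CR1int and CX3CR1hi cells the Nlrp3 difference was -0.07 (95% confidence interval -0.54 to 0.40). Immediate early genes, described below, were also higher than in splenic cells, 12 of 12 in CX3CR1hi and 7 of 12 in CX3CR1int cells. Over all genes 22.2% and 10.2% were higher in these comparisons. The part of the immediate early genes in the Nlrp3 differences was not tested.

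Nlrc4, which with the NAIP proteins responds to bacterial flagellin and secretion systems, was lower in CX3CR1int cells. Its level was 7.91 in the Ly6Clo array and 8.81 in the Ly6Chi array, against 9.54, 9.39, 9.38 and 9.37 in the colitis F4/80hi, steady-state F4/80hi, reconstituted and resident arrays, and 8.84 and 8.96 in the colitis and steady-state splenic arrays. The CX3CR1hi arrays were the highest and close together, and the Ly6Clo array was the lowest. Nlrc4 differed between CX3CR1int and CX3CR1hi cells by a log2 of -1.06 ± 0.23 (SE; limma adjusted p = 0.0125), but with colitis as a term in the fit the difference of -1.09 did not pass (limma adjusted p = 0.0759). Without the Ly6Clo array it was -0.61 (limma adjusted p = 0.0183). Against splenic cells neither CX3CR1hi cells, at 0.52 ± 0.23 (limma adjusted p = 0.0881), nor CX3CR1int cells, at -0.54 (limma adjusted p = 0.166), passed the threshold. The first did pass without either CX3CR1int array (0.52, limma adjusted p = 0.00442) and the other without the Ly6Chi array (-0.99, limma adjusted p = 0.00254).

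Aim2, the sensor of cytosolic DNA, was higher in splenic cells by a small margin. Its level was 10.08 and 9.78 in the CX3CR1int Ly6Clo and Ly6Chi arrays, 10.16, 9.87, 9.83 and 9.83 in the colitis F4/80hi, steady-state F4/80hi, reconstituted and resident arrays, and 10.47 and 10.62 in the colitis and steady-state splenic arrays. Both splenic arrays lay above all colonic arrays, whose populations overlapped. The log2 difference from splenic cells was -0.62 ± 0.15 in CX3CR1hi cells (SE; limma adjusted p = 0.00977) and -0.61 ± 0.17 in CX3CR1int cells (limma adjusted p = 0.0373). Without the steady-state splenic array neither passed, at -0.55 (limma adjusted p = 0.0919) and -0.54 (limma adjusted p = 0.206). The CX3CR1int difference also did not pass without the Ly6Chi array (-0.47, limma adjusted p = 0.0942) or without the colitis splenic array (-0.69, limma adjusted p = 0.111), and without the steady-state F4/80hi, the reconstituted or the resident array it had limma adjusted p of 0.0608, 0.0541 and 0.0528.

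The adaptor and both caspases ranged less over the 8 arrays than Nod1, Nod2, Nlrp3 and Nlrc4. Casp1 and Casp4, over 1.17 and 1.16 log2 units, ranged more than Aim2, over 0.84, and Pycard less, over 0.76. Pycard, the ASC gene, stood at 8.77 and 9.44 in the CX3CR1int Ly6Clo and Ly6Chi arrays, 9.31, 9.24, 9.43 and 9.53 in the colitis F4/80hi, steady-state F4/80hi, reconstituted and resident arrays, and 9.47 and 9.42 in the colitis and steady-state splenic arrays. Only the Ly6Clo array lay apart, below the other 7. With all arrays in the fit Pycard passed the threshold in none of the 3 population comparisons, but without the Ly6Chi array CX3CR1int cells differed by -0.61 from CX3CR1hi cells (limma adjusted p = 0.0216) and by -0.67 from splenic cells (limma adjusted p = 0.0182). With all arrays, its difference between CX3CR1hi and splenic cells was -0.07 (95% confidence interval -0.51 to 0.37).

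Casp1, the protease of the inflammasome, stood at 9.56 and 9.94 in the CX3CR1int Ly6Clo and Ly6Chi arrays, 9.90, 9.71, 9.35 and 9.99 in the colitis F4/80hi, steady-state F4/80hi, reconstituted and resident arrays, and 10.40 and 10.52 in the colitis and steady-state splenic arrays. The splenic arrays were again the highest, and the colonic populations overlapped. Casp1 was lower in CX3CR1hi than in splenic cells, with a log2 difference of -0.72 ± 0.20 (SE; limma adjusted p = 0.0181), which did not pass without the steady-state splenic array (-0.66, limma adjusted p = 0.12) or the colitis splenic array (-0.78, limma adjusted p = 0.0726). In CX3CR1int cells the difference of -0.71 did not pass (limma adjusted p = 0.0599), though it did without the Ly6Chi array, at -0.90 (limma adjusted p = 0.0348), and without the reconstituted array (limma adjusted p = 0.0365).

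Casp4, called Casp11 in much of the mouse literature, lies next to Casp1 on chromosome 9 in the RefSeq annotation but did not share its order. It stood at 9.51 and 10.67 in the CX3CR1int Ly6Clo and Ly6Chi arrays, at 10.22, 10.37, 9.86 and 10.22 in the colitis F4/80hi, steady-state F4/80hi, reconstituted and resident arrays, and at 10.43 and 10.32 in the colitis and steady-state splenic arrays. The highest and the lowest array were both CX3CR1int arrays, and all populations overlapped. Its largest population difference was -0.29 for CX3CR1int against splenic cells (limma adjusted p = 0.56), and this was 0.29 without the Ly6Clo array and -0.87 without the Ly6Chi array (limma adjusted p = 0.0194). Against CX3CR1hi cells it was 0.50 without the Ly6Clo array and -0.66 without the Ly6Chi array (limma adjusted p = 0.0402).

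Gsdmd, whose product forms the membrane pore, was lowest in CX3CR1hi cells. Its level was 8.80 and 9.01 in the CX3CR1int Ly6Clo and Ly6Chi arrays, against 8.43, 8.07, 8.32 and 8.34 in the colitis F4/80hi, steady-state F4/80hi, reconstituted and resident arrays, and 8.97 and 9.24 in the colitis and steady-state splenic arrays. All 4 CX3CR1hi arrays lay below the other 4, and the CX3CR1int and splenic arrays overlapped. Gsdmd was lower in CX3CR1hi than in splenic cells, with a log2 difference of -0.81 ± 0.15 (SE; limma adjusted p = 0.00285; -0.68 and limma adjusted p = 0.0404 without the steady-state splenic array). It was higher in CX3CR1int than in CX3CR1hi cells by 0.61 ± 0.15 (0.27 to 0.96; limma adjusted p = 0.019). That difference did not pass with colitis as a term in the fit (0.61, limma adjusted p = 0.109) or without the Ly6Chi array (0.51, limma adjusted p = 0.0665).

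Counted over the 9 genes, the share that passed was set against all 10673 genes tested. In CX3CR1hi against splenic cells 1 gene was higher and 5 were lower, where 51.2% of all genes passed (22.2% higher and 29.0% lower), and the median log2 difference was -0.62 over the 9 genes and -0.12 over all genes. In CX3CR1int against splenic cells 2 were higher and 1 lower, where 24.4% of all genes passed (10.2% and 14.2%), with medians of -0.34 and -0.08. In CX3CR1int against CX3CR1hi cells 2 were higher and 1 lower, where 29.9% of all genes passed (13.3% and 16.6%), with medians of 0.01 for both. With so many genes passing, these counts do not set the list apart. Without the steady-state splenic array, 4 of 9 passed in CX3CR1hi and 1 of 9, Nod2, in CX3CR1int cells against the colitis splenic array, which limma then assumed to vary like the other arrays.

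**Figure D2:**
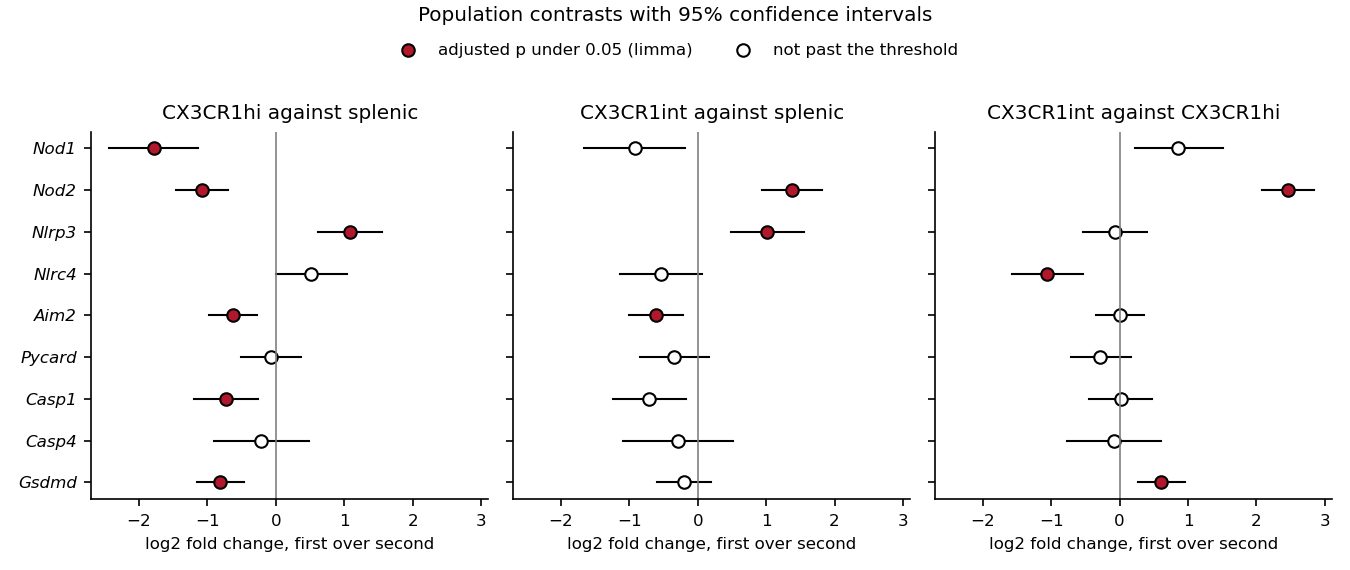
Log2 difference (horizontal axis) of each of the 9 genes between populations, with 95% confidence intervals from limma. The Nod2 difference of CX3CR1int from CX3CR1hi cells, 2.46, was the largest shown, while the intervals of Pycard and Casp4 crossed 0 in every comparison.

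Colitis was compared with steady state within the CX3CR1hi and splenic populations. All colitis arrays were labelled male and the steady-state splenic array female, so in splenic cells colitis cannot be told apart from labelled sex. The steady-state CX3CR1hi arrays were of both labelled sexes, so there colitis and labelled sex are partly mixed. With population as a term, 0 of the 9 genes passed, where 0.0% of all 10673 genes passed in limma. At an unadjusted p under 0.05, 0 of the 9 and 138 of all genes did so. The 9 log2 differences ran between -0.17 for Nlrp3 and 0.21 for Nod1, with a median of 0.05, against 0.02 over all genes. A test of whether the colitis difference was unequal in CX3CR1hi and splenic cells also passed 0.0% of genes in limma, with 0 of the 9 and 129 of all genes at an unadjusted p under 0.05. The colitis test also passed 0 of the 9 without the steady-state splenic array.

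The colitis pairs of single arrays, which allow no test, gave wider ranges than the fit but also none past 2-fold. In colitis against steady-state F4/80hi cells the 9 differences ran between -0.34 and 0.46, with 0 at 2-fold, where 1.47% of genes reached 2-fold. The upper end was Nod1, at 9.36 in the colitis array against 8.90 at steady state, and the lower end was Nlrp3, at 9.86 against 10.21. In colitis against steady-state splenic monocytes they ran between -0.33 and 0.24, again with 0 at 2-fold, where 0.708% of genes did so. There Nod1 was at 10.70 in the colitis array against 10.88 at steady state and Nlrp3 at 9.23 against 8.99, so both went the other way than in F4/80hi cells, and the lower end was Nod2, at 7.59 against 7.92. None of these differences can be set against replicate error. The splenic arrays also differed in labelled sex, male in colitis and female at steady state. Markers also moved in the splenic pair. At least 2-fold higher in the colitis array were 8 of 11 immediate early genes, described below (median log2 difference 1.44), and 4 of 6 epithelial markers (1.67). So were 3 of 5 B and plasma cell markers (1.01), and 0 of these 3 lists' genes were at least 2-fold lower. The part of these shifts was not tested.

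Origin gave no 2-fold difference among the 9 genes, where few of all genes reached one. Monocyte-reconstituted against resident CX3CR1hi macrophages, both at steady state, had 0 of 9 genes at 2-fold, where 1.76% of genes reached it. Casp1 was at 9.35 in the reconstituted array against 9.99 in the resident array, Casp4 at 9.86 against 10.22 and Nod1 at 9.05 against 8.73. Nod2 was at 6.70 in the reconstituted array, against 6.79 in the resident array and 7.92 in steady-state splenic Ly6Chi monocytes. Against those splenic monocytes the resident array showed 3 genes past 2-fold, where 28.4% of genes were: Nod1 at -2.15, Nod2 at -1.13 and Nlrp3 at 1.41. The CX3CR1hi F4/80hi arrays also lay close to the resident and reconstituted ones. Steady-state F4/80hi cells had 0 of 9 genes past 2-fold against resident cells, where 3.64% of genes were, and against reconstituted cells, where 2.09% were, with Casp4 the furthest apart, higher by 0.51 than in reconstituted cells. Colitis F4/80hi cells also had 0 of 9 against both, where 4.51% and 3.6% of genes were past 2-fold.

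The colonic CX3CR1int cells were set beside the other colitis arrays. In Ly6Chi cells of the colon against splenic Ly6Chi monocytes, both from colitis, Nod2 was higher by a log2 of 1.68 and Nlrp3 by 1.14, the 2 genes of 9 past 2-fold, where 13.7% of genes were. Against the colitis F4/80hi array the same colonic Ly6Chi cells had Nod2 higher by 2.49 and Nod1 by 0.99, with 1 of 9 past 2-fold, where 14.4% of genes were. Ly6Clo cells had Nod2 higher by 2.22 and Nlrc4 lower, at -1.63, than the colitis F4/80hi array, where 19.1% of genes were past 2-fold. Against colitis splenic monocytes the Ly6Clo array had Nod2 at 1.41 and Nod1 at -1.31, where 22.5% of genes were past 2-fold. Nod2 was thus past 2-fold in all 4 of these comparisons.

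Within the CX3CR1int gate, Ly6Clo cells were lower than Ly6Chi cells for 8 of the 9 genes. The median log2 difference was -0.49 over the 9 genes and 0.01 over all genes. Casp4 was past 2-fold, at 9.51 in the Ly6Clo array against 10.67 in the Ly6Chi array, a log2 difference of -1.16, where 12.0% of genes were past 2-fold in either direction. Nod1 and Nlrc4 followed, at -0.97 and -0.90. Aim2 was the exception, at 10.08 in the Ly6Clo array against 9.78 in the Ly6Chi array. All 8 dendritic cell markers were at least 2-fold higher in the same Ly6Clo array, with Flt3, a growth factor receptor of dendritic cells, at 11.16 against 9.03 in Ly6Chi, and Ccr7, the receptor that guides migration to lymph nodes, at 11.66 against 9.21. The monocyte gene Chil3 was at 4.60 in Ly6Clo and 9.28 in Ly6Chi, and 5 of 6 monocyte markers were at least 2-fold lower. Also at least 2-fold lower in Ly6Clo were 5 of 6 B and plasma cell markers (median -1.69), with Igha at 9.51 against 12.21, 4 of 9 macrophage markers (median -0.78) and 3 of 8 stromal markers (median -0.80). The part of these markers in the differences of the listed genes was not tested.

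**Figure D3:**
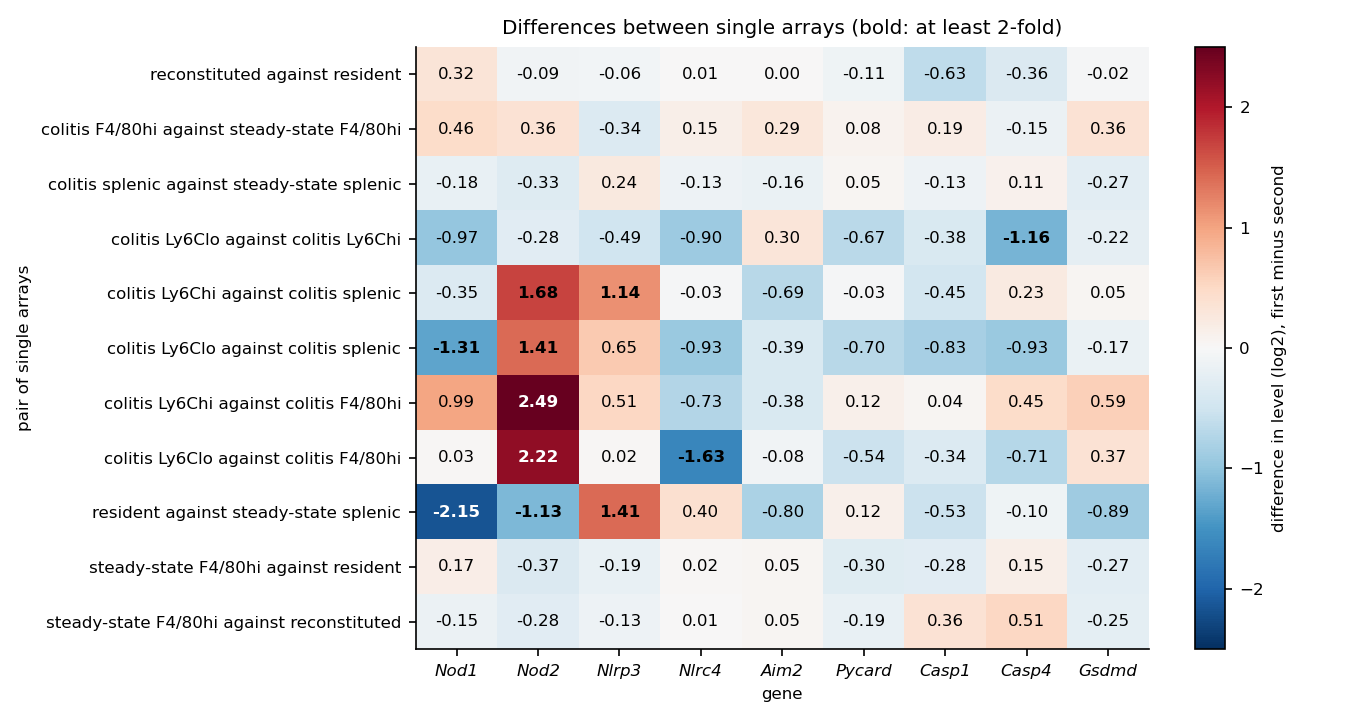
Heat map of log2 differences (first named array minus second) of the 9 genes in the comparisons of single arrays, with no test. Each cell prints its difference, in bold where it was at least 2-fold. No gene of the 9 was past 2-fold in the colitis pairs of F4/80hi and splenic cells, where 1.47% and 0.708% of all genes were. The same held for the origin pair, where 1.76% were. Nod2 was past 2-fold in all 4 comparisons of CX3CR1int arrays with colitis splenic or F4/80hi arrays.

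Other genes of the pathway were counted from lists. Among 23 tested NOD signalling genes, 2 were higher and 13 lower in CX3CR1hi than in splenic cells, where 22.2% and 29.0% of all genes passed, with a median log2 difference of -0.55, against -0.12 over all genes. Lower were Ikbkb, a kinase that releases NF-κB, at -1.63, Card9, an adaptor of innate receptors, at -1.55, and Xiap, a ubiquitin ligase of NOD2 signalling, at -1.15. Tnfaip3, the ubiquitin-editing enzyme A20 that restrains NF-κB, was higher by 2.31 (limma adjusted p = 2.35e-05). Under a 2-fold minimum 2589 of all 10673 genes passed in this comparison. Of the 23, 11 passed without the steady-state splenic array, and 4 under a 2-fold minimum.

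In CX3CR1int against CX3CR1hi cells 10 of the 23 were higher and 1 lower, where 13.3% and 16.6% of all genes passed, with a median of 0.30, against 0.01 over all genes. Ikbkb was higher by 1.49, Card9 by 1.28, Traf6, a ubiquitin ligase upstream of NF-κB, by 1.18, and Nlrc5, known as a regulator of MHC class I genes, by 1.17. With colitis as a term in the fit 5 of the 23 passed, where 972 of all 10673 genes did so. Under a 2-fold minimum 5 of the 23 passed. In CX3CR1int against splenic cells 3 were higher, Tnfaip3 by 1.88, Birc2 by 0.92 and Nfkbia by 0.92, and 2 were lower, Xiap at -0.69 among them, where 10.2% and 14.2% of all genes passed. These 5 of 23 were 2 without either the colitis or the steady-state splenic array, 9 without the Ly6Chi array, and between 1 and 8 under the other settings. Birc2 encodes a ubiquitin ligase and Nfkbia an inhibitor of NF-κB. The immediate early genes given above were also higher against splenic cells, and their part in the Tnfaip3 and Nfkbia results was not tested.

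Peptide transporters, which bring peptidoglycan fragments into the cytosol, were few: of 5 tested, 1 was higher and 2 lower in CX3CR1hi than in splenic cells, 2 were higher in CX3CR1int than in splenic cells and 1 was higher in CX3CR1int than in CX3CR1hi cells. In the first comparison 1 of 5 passed without the steady-state splenic array and in the next 2 of 5, and with colitis as a term 0 of 5 in the last. The shares over all genes in these comparisons were 51.2%, 24.4% and 29.9% with all arrays. With colitis as a term 972 of all 10673 genes passed in the last. With an array left out, these counts ran between 1 and 3, between 1 and 4 and between 0 and 2 of 5. Slc15a3 was higher than in splenic cells by 1.39 in CX3CR1hi and by 1.17 in CX3CR1int cells, with all 6 colonic arrays between 10.70 and 11.34, against 9.77 and 9.80 in the colitis and steady-state splenic arrays. Slc46a3 was lower in CX3CR1hi than in splenic cells, at -1.90, and Slc15a4 at -0.94. Slc15a2 was higher in CX3CR1int cells, by 1.05 against splenic and by 0.67 against CX3CR1hi cells.

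Among 8 other tested sensors, 1 was higher and 6 lower in CX3CR1hi than in splenic cells, where 22.2% and 29.0% of all genes passed, with a median of -0.99, against -0.12 over all genes. Ifi205, of the family of Aim2, was at -3.43, Nlrp1a at -1.71 and Mefv, the pyrin gene, at -1.08, whereas Nlrp6, best known from intestinal epithelium, was at 2.06. In CX3CR1int against splenic cells, where 14.2% of all genes were lower, 4 were lower and 0 higher: Nlrp1a at -1.33 and the flagellin receptor family members Naip2 at -1.16, Naip5 at -1.11 and Naip6 at -1.01. The Naip genes are near-identical copies whose probes may share signal. The passing genes numbered 3 of 8 in the first of these comparisons without the steady-state splenic array. In CX3CR1int cells they numbered 0 without that array, 1 without the colitis splenic array and 2 without the Ly6Clo array. Between CX3CR1int and CX3CR1hi cells Ifi205 was higher by 3.22 and Mefv by 1.47, while Nlrp6 was at -1.15, beside the lower epithelial markers given above. With colitis as a term in the fit 1 of 8 passed, where 972 of all 10673 genes did so.

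Of 16 tested inflammasome partners, 2 were higher and 3 lower in CX3CR1hi than in splenic cells, below the 51.2% of all genes that passed. The 5 were also 5 without the steady-state splenic array, 10 without either CX3CR1int array, and between 4 and 10 under the other settings. Ptpn22, a phosphatase, was at -1.47 and the channel Panx1 at -1.17, while the scavenger receptor Cd36 was at 2.16 and the cell survival gene Bcl2l1 at 1.05. In CX3CR1int against splenic cells 0 were higher and 3 lower, with Ptpn22 at -1.16, Panx1 at -0.84 and Nek7, which binds NLRP3, at -0.59, where 24.4% of all genes passed. In that comparison 0 of 16 passed without the steady-state splenic array, 1 without the colitis splenic array, 1 without the steady-state F4/80hi array and 7 without the Ly6Chi array. Between CX3CR1int and CX3CR1hi cells 2 were lower, Cd36 at -2.30 and P2rx7, the ATP-gated channel upstream of NLRP3, at -1.61, and Trim30a was higher by 0.80, where 29.9% of all genes passed, and 5 passed without the Ly6Chi array.

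Guanylate-binding proteins and immunity-related GTPases, interferon-induced proteins that act on microbes and their membranes in the cytosol, were mixed in CX3CR1hi against splenic cells, with 2 of 7 higher and 3 lower, where 51.2% of all genes passed. Gbp4 was at 3.01, while Gm12250 was at -1.71, Irgm1 at -1.29 and Gbp9 at -0.74, and 2 of 7 passed without the steady-state splenic array and 3 without the colitis splenic array. In CX3CR1int cells 3 of 7 were higher than in splenic cells, Gbp4 by 3.40, Gbp5 by 1.12 and Gbp7 by 0.73, where 24.4% of all genes passed. Each of the fits without the steady-state splenic, the colitis splenic, the Ly6Chi or the steady-state F4/80hi array passed 1 of 7. Against CX3CR1hi cells, where 13.3% of all genes were higher, 4 of 7 were higher and 0 lower. These were Gbp5 by 1.71, Gm12250 by 1.62, Irgm1 by 1.36 and Gbp9 by 0.90. With colitis as a term in the fit 0 of 7 passed, where 972 of all 10673 genes did so. Among 10 interferon-induced marker genes 8 were lower in CX3CR1hi than in splenic cells and 7 were higher in CX3CR1int than in CX3CR1hi cells, and their part in these counts was not tested.

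**Figure D4:**
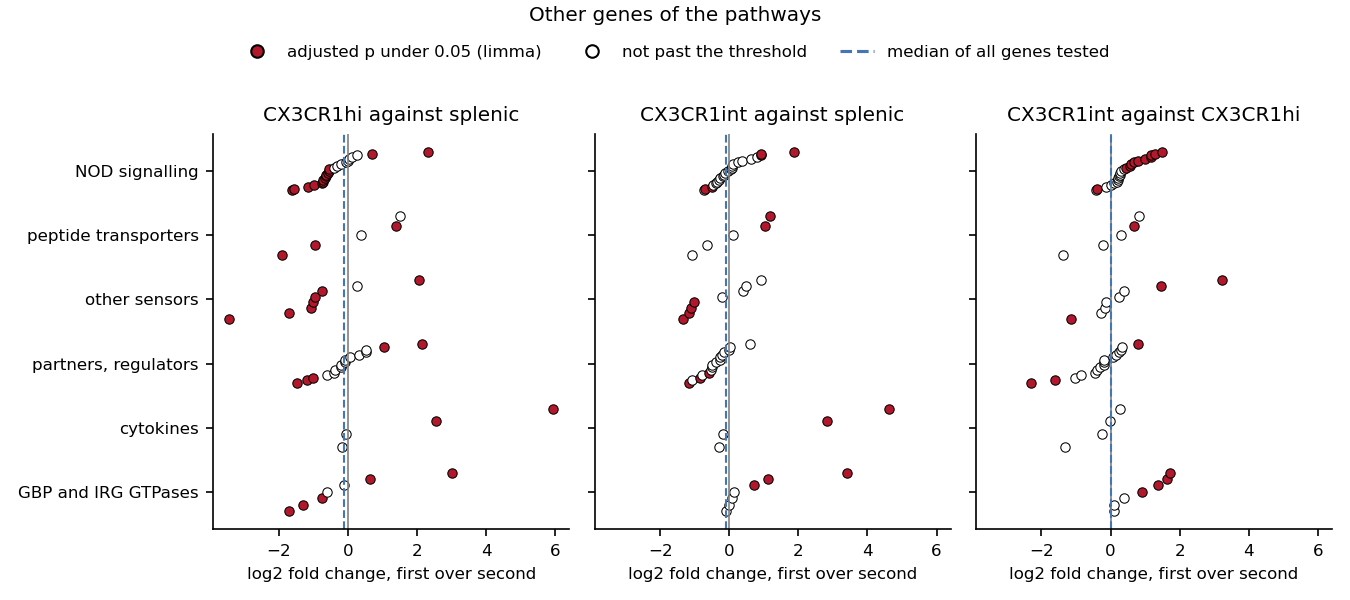
Log2 difference (horizontal axis) of each tested gene of the pathway lists in the comparisons of populations. Filled points passed the limma threshold, and the dashed line marks the median over all genes. The NOD signalling list had 13 of 23 genes lower in CX3CR1hi against splenic cells and 10 of 23 higher in CX3CR1int against CX3CR1hi cells.

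The substrates of caspase-1 differed from each other. Il1b was at 12.96 and 12.95 in the CX3CR1int Ly6Clo and Ly6Chi arrays, 12.64, 12.76, 12.62 and 12.72 in the colitis F4/80hi, steady-state F4/80hi, reconstituted and resident arrays, and 10.46 and 9.78 in the colitis and steady-state splenic arrays. All colonic arrays lay within a narrow band above both splenic arrays, and Il1b was higher than in splenic cells by a log2 of 2.56 in CX3CR1hi (limma adjusted p = 3.67e-05) and 2.84 in CX3CR1int cells. Of 4 product genes tested, 2 passed in each of these comparisons, also without the steady-state splenic array. With all arrays in the fit, 51.2% of all genes passed in the CX3CR1hi and 24.4% in the CX3CR1int comparison with splenic cells. Il1a, which caspase-1 does not cleave, was higher by 5.94 in CX3CR1hi and 4.63 in CX3CR1int cells. Il18 was at 8.45 and 9.44 in the Ly6Clo and Ly6Chi arrays, 9.15, 8.79, 9.38 and 9.43 in the colitis F4/80hi, steady-state F4/80hi, reconstituted and resident arrays, and 9.28 and 9.22 in the colitis and steady-state splenic arrays. It passed in no population comparison, and its difference between CX3CR1hi and splenic cells was -0.06 (95% confidence interval -0.73 to 0.60). Immediate early genes, a class that is transcribed quickly when cells are stimulated or dissociated, moved in the same direction as Il1b: their median level over 12 genes was 11.29 and 11.08 in CX3CR1int Ly6Clo and Ly6Chi, 11.85 to 12.07 in CX3CR1hi and 10.05 and 8.49 in the colitis and steady-state splenic arrays, and their part in the result was not tested.

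**Figure D5:**
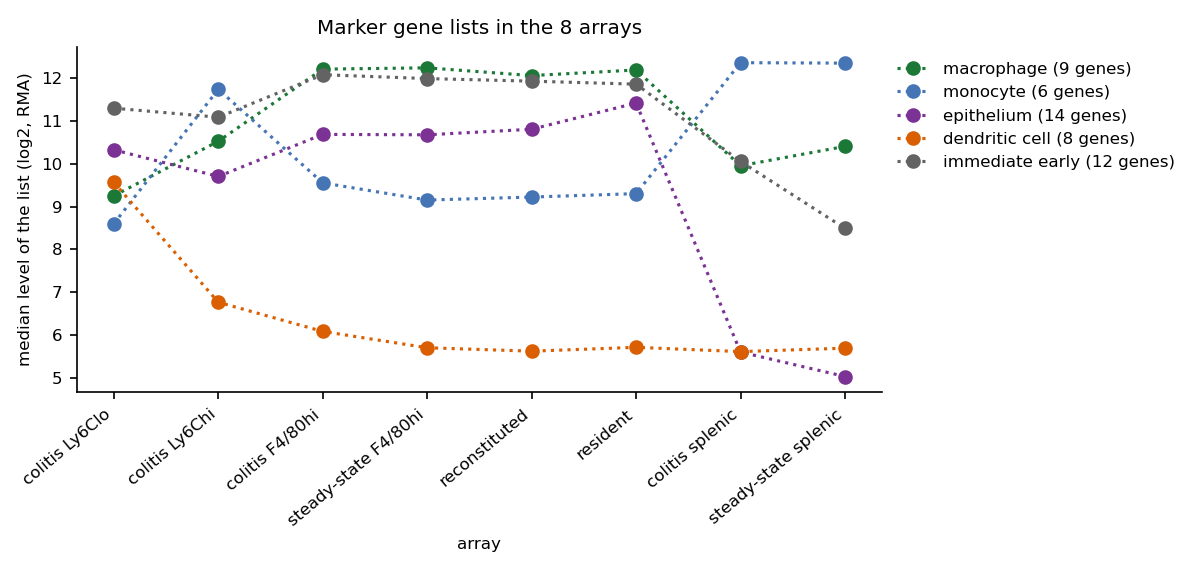
Median log2 level (vertical axis) of the macrophage, monocyte, epithelial, dendritic cell and immediate early lists in the 8 arrays. The other marker lists are not shown. Epithelial markers had medians of 9.70 to 11.41 in the colonic arrays, against 5.61 and 5.04 in the colitis and steady-state splenic arrays, and dendritic cell markers reached 9.56 in the CX3CR1int Ly6Clo array.

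For Nod1 and Nod2, the genes whose levels ranged over at least 2 log2 units, the genes with the most similar profile were found among 10236 genes, by the root mean square difference of log2 levels over the 8 arrays after each gene's mean was removed. For Nod1 these were Slfn8 (0.14), Ggct (0.15) and Oas1a (0.16). Ggct is the protein-coding neighbour of Nod1 on chromosome 6 in the RefSeq annotation. In the CX3CR1hi arrays Ggct was at 5.68 to 6.02, near the array medians of 5.77 to 5.87. For Nod2 they were D16Ertd472e (0.18), Map3k14 (0.34) and Pfkp (0.36). These likenesses are descriptions over 8 arrays that share their populations.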

How the data were processed

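Total RNA of sorted cells was hybridised to Affymetrix arrays, 1 for each of 8 groups, per the labels. The deposited values are on a log2 scale (3.37 to 14.31), made by the authors with RMA (background correction, quantile normalization, probe set summary) and Partek, per the submitters' processing notes. Versions and the genome build are not given in the sources used here. Array medians were 5.77 to 5.87, and the number of arrays limits the precision.

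Of 35399 probe sets, 21789 carried 1 symbol in the platform annotation, 1621 several and 11989 none. Genes were taken from the first kind, using the probe set with the highest mean. Entrez identifiers of 21698 probe sets matched RefSeq, which changed 0 symbols.

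The tests between populations used lmFit and eBayes of limma 3.58.1 (R 4.3.3). They ran on the 10673 genes that reached their array's median on 2 or more arrays, and 1 model over the 8 arrays left 5 residual degrees of freedom. P-values were adjusted by Benjamini-Hochberg over all these genes, with a threshold of 0.05. Colitis was fitted with population as a term. Single arrays were compared as log2 differences with no test, over genes whose brighter array was at or above its median. The fits were tested on simulated data. Tables and plots were made in Python 3.11.15 (pandas 2.3.3, numpy 2.4.6, matplotlib 3.10.9).

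Named were all listed genes, up to 4 passing genes of each other pathway list per population comparison, Il1b, Il18, and 3 genes of most similar profile for genes ranging over at least 2 log2 units. The genes and lists were chosen with earlier results of these data known. Alternatives were other brightness filters, probe set means, arrays centred on medians, repeated quantile normalization, sex or condition as a term, a 2-fold minimum, a prior that was trended and robust, fits on the arrays of 1 comparison, and each array left out.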

Additional observations from a re-analysis of the deposited data

Results flagged for a closer look

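In a group of 4 arrays, 1 value can stand apart from the other 3. Among 11 genes examined in the CX3CR1hi population, Nlrc4 at 9.54 and Aim2 at 10.16, both in the colitis F4/80hi array, had a gap to the nearest other array of 0.858 of the population's range for each gene, above Dixon's 95% critical value. Chance gives about 1 such case in 20 groups. The other 3 CX3CR1hi arrays, all at steady state, held Nlrc4 at 9.39, 9.38 and 9.37 and Aim2 at 9.87, 9.83 and 9.83 in the F4/80hi, reconstituted and resident arrays. Between the colitis and steady-state F4/80hi arrays Nlrc4 differed by 0.15 and Aim2 by 0.29. The median absolute difference over all genes in that pair was 0.167.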

How the results depend on the processing

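The number of the 9 genes that passed in CX3CR1hi against splenic cells was 6, fell to 3 under a 2-fold minimum, and ran between 4 and 7 with each array left out. In CX3CR1int against splenic cells it was 3, but 5 with arrays centred on their medians, 1 with only the arrays of the comparison, and between 1 (without either splenic array) and 7 (without Ly6Chi) with 1 array left out. In CX3CR1int against CX3CR1hi cells it was 3, but 1 with condition as a term, and 3 to 4 with an array left out. For colitis it stayed at 0. Differences near 0 changed sign: Pycard in CX3CR1hi against splenic cells was 0.07 after repeated quantile normalization. In CX3CR1int against CX3CR1hi cells Aim2 was -0.04, -0.03, -0.03 and -0.09 and Casp1 -0.05, -0.01, -0.02 and -0.04 under repeated quantile normalization, sex as a block, arrays centred on their medians and condition as a term, and Nlrp3 was 0.06 under the last. With each array left out in turn, CX3CR1int against CX3CR1hi differences ran between -0.14 and 0.16 for Aim2, -0.17 and 0.21 for Casp1, -0.66 and 0.50 for Casp4, -0.32 and 0.17 for Nlrp3 and -0.61 and 0.06 for Pycard, and the Casp4 difference of CX3CR1int from splenic cells between -0.87 and 0.29. The causes were not tested. All-gene counts fell from 5466 to 2589 under the 2-fold minimum and to 3505 under a 75th percentile filter in the first comparison. They fell from 2605 to 947 with only the arrays of the comparison in the next, and from 3186 to 972 with condition as a term in the last. Without the steady-state splenic array they were 3246, 735 and 2402. The colitis difference between CX3CR1hi and splenic cells passed 1 gene, none of the 9, under a trended and robust prior. Nod1, Nod2 and Nlrp3 in CX3CR1hi against splenic cells and Nod2 in the other comparisons passed under every alternative run. The 11 single-array differences past 2-fold numbered 11 under all 4 alternatives. No paired analysis was possible because each group had 1 array and the labels give no replicate numbers. A lone array left in a population was assumed by limma to vary like the others.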

Other observations

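The genes of the other pathway lists that were past 2-fold in 3 comparisons of single arrays are given here, with no test. In colitis against steady-state F4/80hi cells there were 2, Irgm1, an immunity-related GTPase, at 9.99 against 8.92, and Casp12, the neighbour of Casp4 on chromosome 9, at 7.24 against 6.17. Past the brightness filter the lists held 23 NOD signalling genes, 5 transporters, 8 sensors, 16 partners, 4 products and 7 GTPases there. Of all genes, 1.47% were past 2-fold. In the same pair 3 of 10 interferon-induced markers (median log2 difference 0.80), 4 of 8 stromal markers (0.90) and 2 of 5 monocyte markers (0.50) were at least 2-fold higher, and their part in these differences was not tested. In monocyte-reconstituted against resident macrophages there were also 2, Il1a at 11.64 against 10.60 and, in the other direction, the peptide transporter gene Slc15a1 at 6.41 against 7.84. The lists held the same numbers of genes past the filter as in the F4/80hi pair, and 1.76% of all genes were past 2-fold. In that pair 2 of 14 epithelial markers were at least 2-fold lower (median -0.44).

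In Ly6Clo against Ly6Chi CX3CR1int cells 10 such genes were past 2-fold, 8 of them lower and 2 higher, where 12.0% of all genes were. Past the brightness filter the lists held 23 NOD signalling genes, 4 transporters, 8 sensors, 16 partners, 4 products and 7 GTPases in this pair. Lower were Ninj1, whose product ruptures the membrane of dying cells, at 7.71 against 10.04, Il1a at 8.24 against 10.54, the lipopolysaccharide receptor gene Tlr4 at 7.35 against 9.48, Casp12 at 5.48 against 6.91 and P2rx7 at 8.08 against 9.42. Mefv was at 9.47 against 10.79, Naip2 at 9.18 against 10.31 and Nlrx1 at 5.70 against 6.80. Slc46a3, at 10.55 in Ly6Clo against 7.80 in Ly6Chi, and Cd36, at 9.03 against 7.68, were higher. The dendritic, monocyte, B and plasma cell markers given above moved in the same pair.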
